A study of Mus musculus with 8 samples.

Results

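Expression of 10 genes that organise the cell cortex and its supply of membrane was followed in fibroblast cultures from mouse colon. They were Ezr, Rdx and Msn (the ezrin family), the related gene Nf2, the scaffold gene Slc9a3r1, the protein 4.1 genes Epb41, Epb41l1 and Epb41l2, and the recycling endosome genes Rab11fip1 and Rab25. These are 10 of 45321 genes with a transcript in the tables. A total of 9 passed the filter on low counts that left 12963 genes for testing, and Rab25 did not. The 10 symbols were selected on earlier results of these same libraries, in which the difference between genotypes was known. Genotype differences of these genes are therefore given as a description, with no p-value, and how many of them lie past the threshold used for all genes is stated once as part of that description.

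The libraries came from adherent cultures of 2 genotypes, with 4 libraries each. Fib-Ctrl cultures were Zeb1 flox/flox, with both Zeb1 alleles flanked by loxP sites, and Fib-dZeb1 cultures were Zeb1 del/del. Both genotypes are labelled as fibroblast cells from colon with no treatment, and the age of the animals is not given in the sources used here. Each genotype had 2 lines with 2 replicates per line. According to the paper Cre recombinase was induced in vitro. The paper does not say how Fib-Ctrl cultures were handled at that step, so deletion and Cre treatment cannot be told apart. Zeb1 encodes a zinc-finger repressor of epithelial genes and fell from 94.7 ± 2.71 to 14.3 ± 2.96 CPM (counts relative to the scaled library total; SD, n = 4 each).

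Ezrin, radixin and moesin are close relatives that tie the plasma membrane to cortical actin filaments. Each carries a FERM domain that binds membrane lipids and membrane proteins and a tail that binds actin, and phosphorylation opens the molecule. Epithelial cells use mainly ezrin, which builds the microvilli of the gut brush border, whereas moesin prevails in many mesenchymal and blood cells. Protein 4.1 proteins also carry a FERM domain and tie the membrane to the spectrin and actin meshwork. Rab11 GTPases and their Rab11-FIP effectors return internalised membrane to the cell surface, and Rab25 is the member of that family found mainly in epithelia.

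The promoters of Ezr, Epb41 and Rab25 are shown because Ezr and Epb41 stood far apart between genotypes and Rab25 was nearly silent in both. Each line gives the 250 bases before a RefSeq start site on GRCm38.p6, 5′ to 3′ on the strand of the gene. Capitals mark CACCTG or its reverse complement CAGGTG, the E-box letters that ZEB1 is known to bind.
Ezr, chr17:6782781-6783030, minus strand: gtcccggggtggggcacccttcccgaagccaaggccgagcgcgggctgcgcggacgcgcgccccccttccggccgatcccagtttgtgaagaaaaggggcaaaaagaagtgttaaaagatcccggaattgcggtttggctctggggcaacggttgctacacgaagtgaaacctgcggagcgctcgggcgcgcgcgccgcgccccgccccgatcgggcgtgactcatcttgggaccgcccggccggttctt
Epb41, chr4:132075314-132075563, minus strand: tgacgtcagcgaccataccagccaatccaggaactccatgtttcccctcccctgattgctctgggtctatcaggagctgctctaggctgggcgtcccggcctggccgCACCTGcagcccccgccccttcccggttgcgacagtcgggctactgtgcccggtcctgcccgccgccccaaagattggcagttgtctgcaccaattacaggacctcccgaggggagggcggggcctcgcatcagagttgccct
Rab25, chr3:88548280-88548529, minus strand: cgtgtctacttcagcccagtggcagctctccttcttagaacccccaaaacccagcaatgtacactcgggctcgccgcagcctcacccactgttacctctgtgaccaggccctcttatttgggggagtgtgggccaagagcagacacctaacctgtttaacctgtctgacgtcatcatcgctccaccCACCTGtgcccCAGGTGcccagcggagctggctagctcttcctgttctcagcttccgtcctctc

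The Ezr window held no match on either strand. The Epb41 window shown, 1 of 3 for this gene, held 1 match, 143 bases before the start, while the other windows of Epb41 held none. It is shown because the bases after this start are those of the processed transcript to which much of the Epb41 signal was assigned. The Rab25 window held 2 matches, which began 64 and 53 bases before the start. RefSeq windows were found for 9 of the 10 genes, with Rab11fip1 not among them, and 2 of their 15 windows held the letters. Over all 32851 windows of this length in the table the share was 17.2%. A match is only a run of letters.

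Totals lay between 18852422 and 25540529 reads per library. All 7 fibroblast markers looked at had reads, with a summed level of 14460 to 18149 TPM (a level per transcript length, scaled to the same total in every library) in Fib-Ctrl and 7066 to 10492 TPM in Fib-dZeb1. Of those 7 markers 3 were lower in Fib-dZeb1 (Col1a1, Col1a2 and Pdgfrb) and none was higher. The mean of Col1a1 went from 6375 to 2302 TPM and that of Col1a2 from 4441 to 1480 TPM. The other markers did not pass, with log2 fold changes of -0.88 (Col3a1), 0.15 (Pdgfra), 0.16 (Thy1) and -0.09 (Vim). Xist, a marker of female cells, had 5256 and 2704 reads in Fib-dZeb1 line 1 and none in the other lines, so line 1 of Fib-dZeb1 and line 1 of Fib-Ctrl were not from the same animal. P-values over 8 libraries count replicates of a line as independent and measure the spread between these libraries, although each genotype had only 2 lines.

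Ezr (ENSMUSG00000052397.8, chromosome 17, positions 6738041 to 6782784 of GRCm38, minus strand) was nearly silent in Fib-Ctrl and clearly detected in Fib-dZeb1, still below Rdx and Msn. In Fib-Ctrl it had 53 and 27 reads in line 1 and 46 and 57 reads in line 2. In Fib-dZeb1 it had 1197 and 1549 reads in line 1 and 1692 and 1773 reads in line 2. All 4 Fib-dZeb1 libraries thus lay far above all Fib-Ctrl libraries. The level was 1.28 ± 0.368 TPM in Fib-Ctrl and 40.7 ± 5.38 TPM in Fib-dZeb1 (SD, n = 4 each). The fitted difference was 28.0-fold (log2 fold change 4.8, SE 0.24), the 42nd largest rise among 12963 genes. In Fib-Ctrl 9.30% of tested genes had a lower mean TPM than Ezr, and in Fib-dZeb1 69.2% did.

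The other members of the ezrin family were abundant in both genotypes. Msn (moesin, X chromosome) was the most abundant of the 10 genes, with 348 and 394 TPM in Fib-Ctrl line 1 and 609 and 582 TPM in Fib-Ctrl line 2. In Fib-dZeb1 it had 494 and 743 TPM in line 1 and 590 and 656 TPM in line 2. The genotypes overlapped, and the log2 fold change was 0.20 (SE 0.23). Msn is X-linked, and the Xist-positive Fib-dZeb1 line 1 held both the lowest and the highest of the Fib-dZeb1 values. Rdx (radixin) had 74.4 and 70.1 TPM in Fib-Ctrl line 1 and 80.4 and 83.0 TPM in line 2, against 109 and 109 TPM in Fib-dZeb1 line 1 and 106 and 113 TPM in line 2. Its libraries did not overlap, but the difference was small, 1.27-fold (log2 fold change 0.34, SE 0.10). This fold is of counts scaled for the composition of libraries, which the TPM are not. With library size only the log2 fold change was 0.52.

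Set against its relatives, ezrin stayed a minor member. Its share of the summed TPM of Ezr, Rdx and Msn ranged from 0.16% to 0.323% in Fib-Ctrl and rose above that in each Fib-dZeb1 library (4.28% to 6.45%). Moesin held 82.1% to 88.2% of the sum in the Fib-Ctrl libraries, and 77.3% to 83.5% in those of Fib-dZeb1, and radixin made up the rest. Counted over reads instead of TPM, the mean share of Ezr in Fib-dZeb1 was 4.26% rather than 5.34%. Of the 3259 different 31-base words of Ezr transcripts, 2 occur in another of the 10 genes and 38 in Gm5739. Whether reads were exchanged between the relatives was not tested. Nearly all the Ezr signal (96.0% to 100%) was assigned to the protein-coding transcript Ezr-201.

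**Figure D1:**
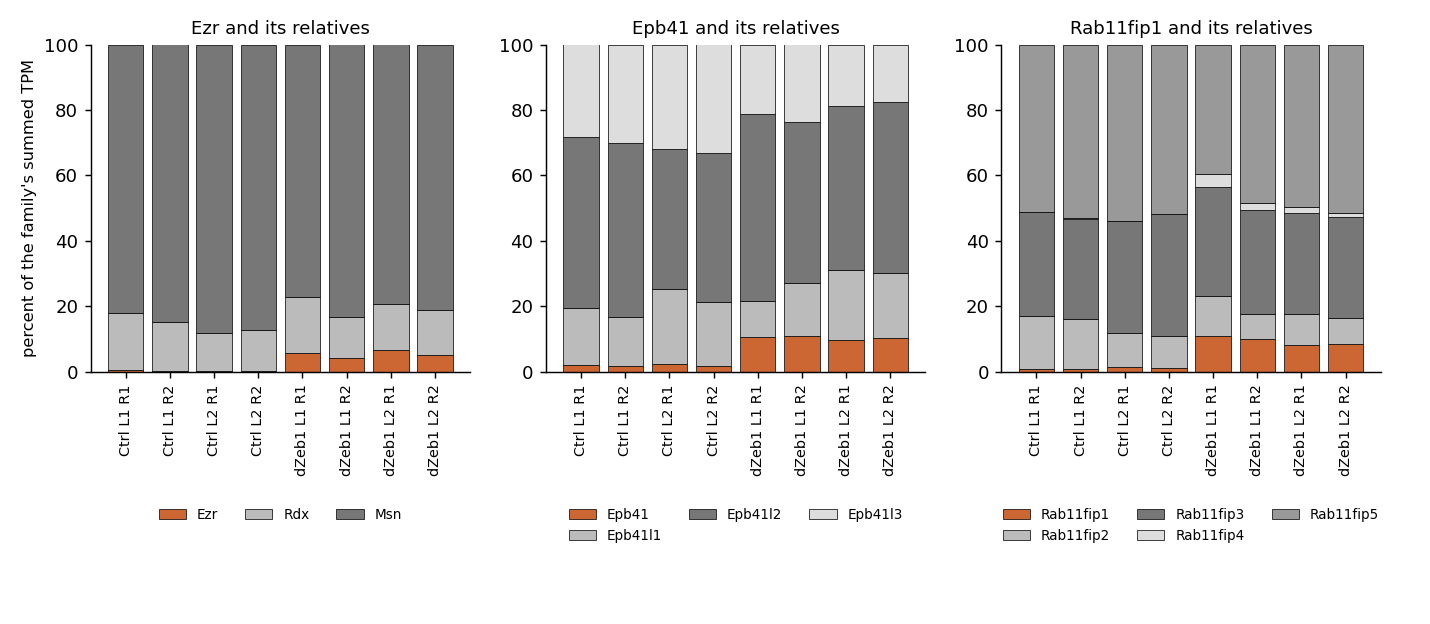
Percent of the summed TPM of each family (y axis, 0 to 100) held by each gene, for the 8 libraries (x axis; L is line, R is replicate). The orange segment at the base is Ezr, Epb41 or Rab11fip1. Ezr goes from at most 0.323% in Fib-Ctrl to at least 4.28% in Fib-dZeb1, while Msn holds most of the ezrin family in every library.

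Epb41 (ENSMUSG00000028906.16, chromosome 4, positions 131923413 to 132075321, minus strand) encodes protein 4.1R, first known from the red cell membrane. It had 4.42 and 4.27 TPM in Fib-Ctrl line 1 and 4.99 and 3.72 TPM in line 2. In Fib-dZeb1 it had 24.9 and 23.1 TPM in line 1 and 27.0 and 27.7 TPM in line 2. The genotypes were well apart and the 4 libraries of each lay close together. The difference was 4.97-fold (log2 fold change 2.31, SE 0.11). Rab11fip1, which encodes the Rab11 effector also called RCP (chromosome 8, positions 27138773 to 27174646, minus strand), had 0.513 and 0.417 TPM in Fib-Ctrl line 1 and 0.675 and 0.512 TPM in line 2. In Fib-dZeb1 it had 6.21 and 5.18 TPM in line 1 and 6.08 and 6.59 TPM in line 2. It too did not overlap, with a 10.3-fold difference (log2 fold change 3.37, SE 0.18). Its level remained low, since 25.1% of tested genes had a lower mean TPM in Fib-dZeb1.

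Rab25 (chromosome 3, positions 88542029 to 88548300, minus strand) was barely detected. It had no read in 3 Fib-Ctrl libraries and 1 in the remaining one, and 2, 0, 0 and 1 reads in the Fib-dZeb1 libraries. This is at or below the 3 reads that a count of 0 allows per library, so no fold is given, and the limit covers counting error only. Its relatives Rab11a and Rab11b held nearly the whole family. Rab11a made up 60.4% to 64.6% of the summed TPM of Rab11a, Rab11b and Rab25 in Fib-Ctrl, against 53.1% to 61.5% in Fib-dZeb1, and Rab25 held at most 0.475% in any library.

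The remaining members overlapped between genotypes in CPM. Nf2, which encodes merlin, a FERM protein and tumour suppressor that acts on the Hippo pathway, had 30.9, 27.6, 28.3 and 29.4 TPM in Fib-Ctrl and 39.1, 35.6, 34.5 and 34.0 TPM in Fib-dZeb1, in the order line 1 then line 2. These TPM values did not overlap, but the scaled CPM did, and the log2 fold change was 0.12 (SE 0.08). Without scaling for the composition of libraries, which moved the median of all genes from -0.005 to 0.173 on the log2 scale, the value for Nf2 was 0.30. Epb41l2, which encodes the broadly expressed protein 4.1G, differed by 0.10 on the log2 scale (SE 0.14) and ranged from 88.5 to 123 TPM in Fib-Ctrl and from 103 to 140 TPM in Fib-dZeb1. Epb41l1, which encodes 4.1N, a form known from neurons, differed by -0.09 (SE 0.22) and ranged from 34.2 to 46.6 TPM and from 25.2 to 59.3 TPM.

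**Figure D2:**
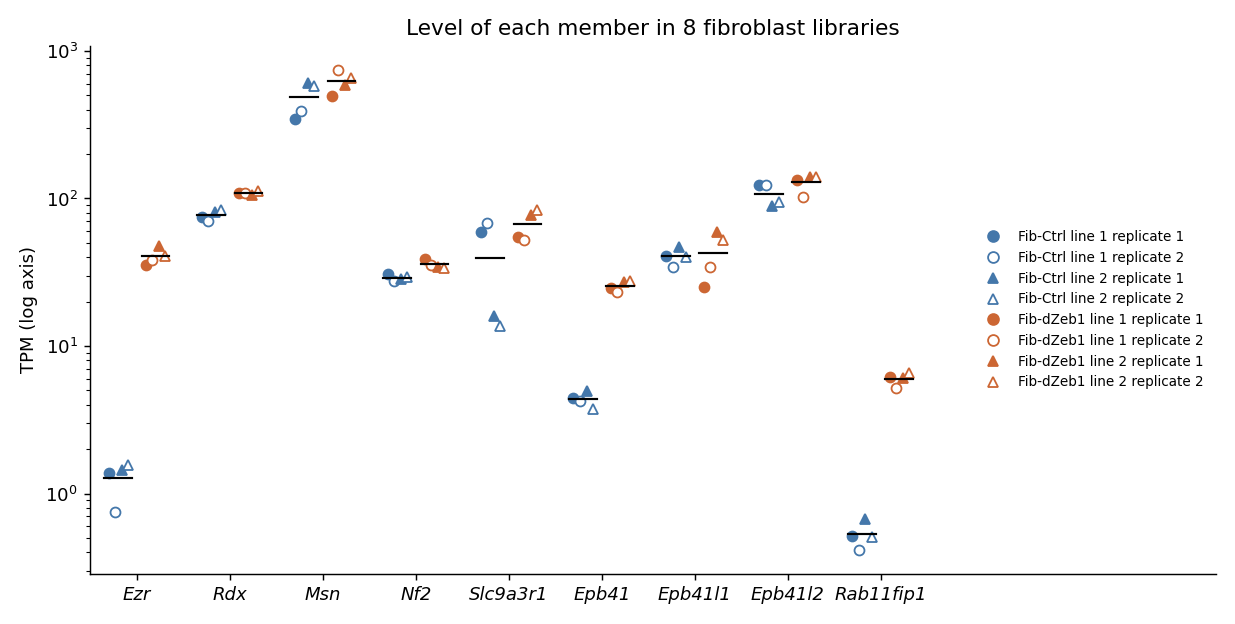
TPM (y axis, log scale) of the 9 genes that passed the filter, in each of 8 libraries; Fib-Ctrl is blue and Fib-dZeb1 orange, circles stand for line 1 and triangles for line 2, with replicate 1 filled and replicate 2 open; bars mark means of 4 libraries. Ezr, Epb41 and Rab11fip1 stand apart between genotypes, whereas the 2 Fib-Ctrl lines part for Slc9a3r1.

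In order of mean TPM, Fib-Ctrl had Msn, Epb41l2, Rdx, Epb41l1, Slc9a3r1, Nf2, Epb41, Ezr and Rab11fip1. Each of the first 3 lay above the next gene in every library with ranges that did not overlap. Epb41l1 (34.2 to 46.6 TPM) lay above Nf2 (27.6 to 30.9 TPM), but Slc9a3r1, which ranged from 13.6 to 68.5 TPM, overlapped both and could not be placed. In Fib-dZeb1 the order was Msn, Epb41l2, Rdx, Slc9a3r1, Epb41l1, Ezr, Nf2, Epb41 and Rab11fip1. Epb41l2 and Rdx overlapped there, as did Slc9a3r1 (52.3 to 84.1 TPM) and Epb41l1 and, below them, Epb41l1 (25.2 to 59.3 TPM), Ezr (35.5 to 48.0 TPM) and Nf2 (34.0 to 39.1 TPM).

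As a description of the selection, 4 of the 9 genes (Ezr, Epb41, Rab11fip1 and Rdx) lay past the threshold of 0.05 that was set for all genes in the genotype fit, on the higher side, and the same 4 did not overlap in CPM. Of all genes tested 7.54% were called higher and 8.65% lower, and 12.0% did not overlap and were higher. Since the genes were selected on this contrast in these libraries, nothing is read from the count or from how it changes with the processing.

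**Figure D3:**
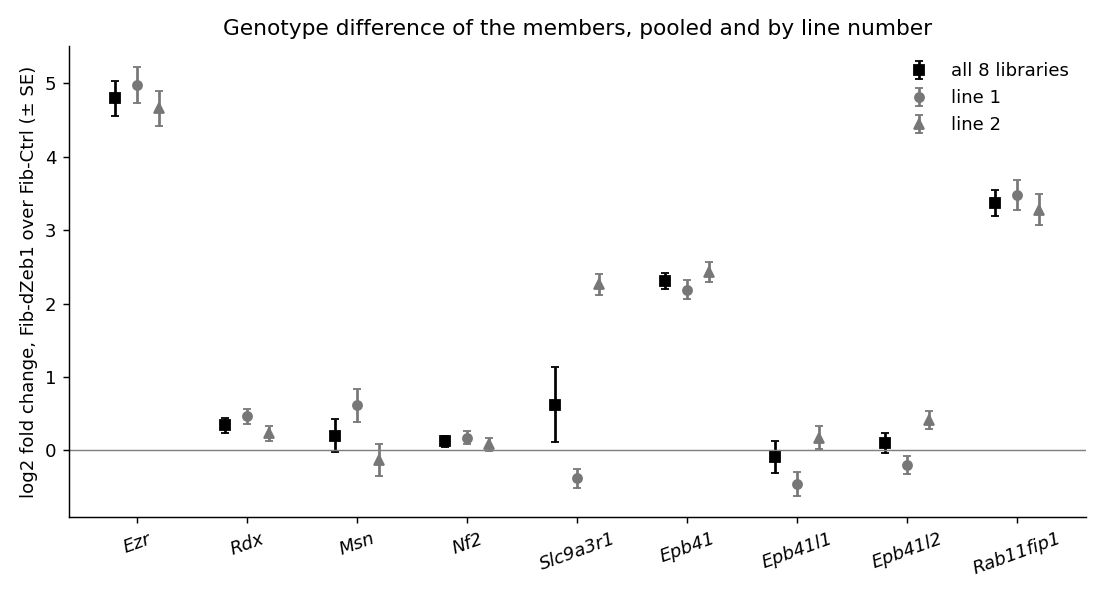
Log2 fold change of Fib-dZeb1 over Fib-Ctrl (y axis) for the 9 genes, from all 8 libraries (squares) and within line 1 (circles) and line 2 (triangles); bars are SE. Ezr, Rab11fip1 and Epb41 have like values in both line numbers, and Slc9a3r1 goes from -0.38 in line 1 to 2.26 in line 2.

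How far a genotype difference depended on the cultures was asked with a fit that gave each of the 4 lines its own mean. The difference between line numbers was tested (edgeR, adjusted over all 12963 genes). The genes were selected with the genotype difference of these libraries known, and a clear difference favours genes whose lines agree. For Ezr, Epb41 and Rab11fip1 a difference that did not pass is therefore no independent test of agreement between lines. Ezr had a log2 fold change of 4.98 (SE 0.24) within line 1 and 4.66 (SE 0.24) within line 2, and the difference did not pass (adjusted p = 0.531 by edgeR). Epb41 had 2.19 and 2.43 (SE 0.13 each; adjusted p of the difference 0.395 by edgeR), and Rab11fip1 had 3.48 and 3.28 (SE 0.21 each; 0.661). Line 1 of both genotypes was not from the same animal, and for line 2 this is not known. The line numbers were therefore not taken as pairs, and these are differences among 4 lines.

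Slc9a3r1 was the exception. It encodes NHERF1, also called EBP50, a PDZ scaffold that binds ezrin and anchors ion transporters beneath the apical membrane. It had 58.8 and 68.5 TPM in Fib-Ctrl line 1 but 15.9 and 13.6 TPM in Fib-Ctrl line 2. In Fib-dZeb1 it had 55.2 and 52.3 TPM in line 1 and 77.4 and 84.1 TPM in line 2. A single line, Fib-Ctrl line 2, was low, and the other lines lay within a range of 52.3 to 84.1 TPM. Fib-Ctrl line 1 was 4.22-fold above line 2 (log2 fold change 2.08 with SE 0.14; adjusted p = 0.000634 by edgeR). The genotype contrast was -0.38 within line 1 and 2.26 within line 2, a difference of -2.64 (SE 0.19, adjusted p = 0.000782 by edgeR). The pooled log2 fold change of 0.62 (SE 0.51) averages over these cultures.

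Among the 9 genes Slc9a3r1 was the only one called between the Fib-Ctrl lines, where 17.0% of all genes were called, and the only one whose genotype contrast differed between line numbers, where 15.3% were called. Between the Fib-dZeb1 lines 2 of 9 were called, against 6.87% of all genes. Epb41l1 was lower in line 1 (25.2 and 34.2 TPM) than in line 2 (59.3 and 52.7 TPM; log2 fold change -0.77 with SE 0.16; adjusted p = 0.0361 by edgeR). Slc9a3r1 was also lower in line 1 (-0.56, SE 0.13, adjusted p = 0.0486 by edgeR). Msn between the Fib-Ctrl lines (-0.71, SE 0.22, adjusted p = 0.0619 by edgeR) and Epb41l2 in the test of the line difference (-0.60, SE 0.17, adjusted p = 0.055 by edgeR) missed the threshold, whereas DESeq2 called Msn and Epb41l2 between the Fib-Ctrl lines. Between replicates 1 and 2 none of the 9 was called by edgeR, 1 of them had an unadjusted p under 0.05, and 0.0231% of all genes were called.

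**Figure D4:**
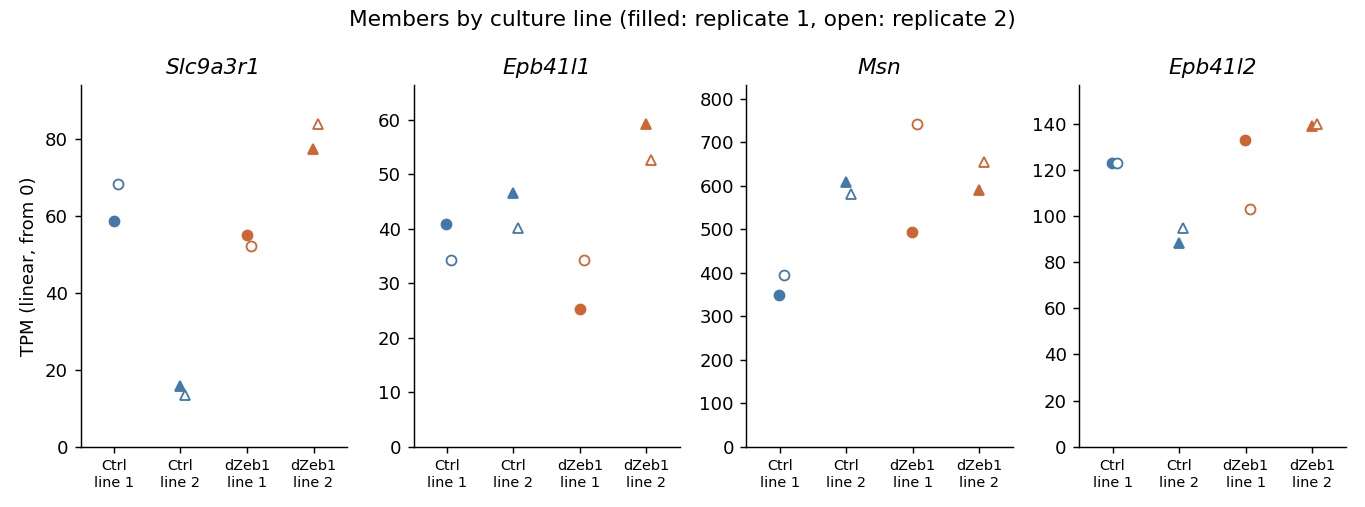
TPM (y axis, linear from 0) of Slc9a3r1, Epb41l1, Msn and Epb41l2 in each line (x axis); Fib-Ctrl is blue, Fib-dZeb1 orange, replicate 1 filled and replicate 2 open. Fib-Ctrl line 2 is the low line for Slc9a3r1 (15.9 and 13.6 TPM), and Fib-dZeb1 line 1 is low for Epb41l1.

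Transcripts were compared by their share of the gene's TPM, which is an estimate by Salmon. No transcript holding at least 10% had shares that parted between genotypes. A processed transcript of 5074 bases, annotated without a coding frame, held 35.0% to 79.2% of Epb41 in the 4 Fib-Ctrl libraries and 50% to 57.4% in those of Fib-dZeb1. Epb41-210, a protein-coding form, held 15.6% to 20.7% and 13.0% to 19.4%. Epb41-202 was assigned 45.0% in Fib-Ctrl line 1 replicate 2 and nothing in the other 7 libraries, so the split of Epb41 is uncertain at the low reads of Fib-Ctrl (209 to 268). Rab11fip1-202 held 45.2% to 86.2% of its gene in Fib-Ctrl, against 58.1% to 73.8% with Zeb1 deleted. Rdx-203 and Rdx-201 shared the signal of Rdx in both genotypes (Rdx-203 46.7% to 62.9% and 50.4% to 63.0%). The main Nf2 transcript held 65.2% to 70.4% and 61.8% to 71.3%, and the main Epb41l1 transcript 45.6% to 59.5% and 45.5% to 62.7%. When only protein-coding transcripts were summed, the share of Epb41 among the 4 genes Epb41 and Epb41l1 to Epb41l3 ranged from 0.4% to 1.19% in Fib-Ctrl and lay above it in every Fib-dZeb1 library (3.92% to 5.23%), against 1.79% to 2.43% and 9.73% to 11% over all transcripts.

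Genes annotated on top of members held almost no reads: Sytl3, on the other strand of the Ezr locus, had 0 and 2 reads per genotype, Gm10300 in Epb41 had 5 and 2, and 4933416M07Rik in Rab11fip1 had 0 and 1. Rab11fip1 shares 4.95% of its 31-base words with other genes, mostly with that overlapping gene, and no other member shares more than 2.80%. Among the nearest tested genes on either side of Ezr, Epb41 and Rab11fip1, only Dynlt1f, 82141 bases from Ezr, passed the genotype test (log2 fold change 0.75 with SE 0.15; adjusted p = 0.0127 by edgeR).

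Ezr, Epb41 and Rab11fip1 had nearly the same profile over the 8 libraries. The correlation of log2(CPM + 0.5) was 0.993 between Ezr and Rab11fip1, 0.99 between Ezr and Epb41 and 0.996 between Epb41 and Rab11fip1. Among 10629 genes the closest to Ezr were Spint2, a protease inhibitor gene (0.994), Rab11fip1 (0.993) and Lsr, a tricellular junction gene (0.992). The closest to Rab11fip1 were Lsr (0.996), Epb41 (0.996) and Als2cl (0.995), and those closest to Epb41 were Parp2, a DNA repair gene (0.997), the adhesion receptor gene Cxadr (0.996) and Rab11fip1. All points share the split into 2 genotypes, so these values describe mainly that gap.

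Markers of other cell types were measured beside Ezr. The summed level of 10 colon epithelium markers was 2.43 to 6.61 TPM in Fib-Ctrl and 25.8 to 191 TPM in Fib-dZeb1. Only 3 of the 10 had enough reads to be tested, and 2 of these were higher in Fib-dZeb1. Krt18, a keratin gene, was most of the sum in Fib-dZeb1 line 1 (66.6 and 179 TPM) but not in line 2 (3.97 and 9.05 TPM). Epcam, an epithelial adhesion gene, rose from at most 0.0516 TPM in Fib-Ctrl to 1.84 and 3.53 TPM in Fib-dZeb1 line 1 and 4.58 and 4.48 TPM in line 2 (log2 fold change 6.35; adjusted p = 0.000902 by edgeR). Krt8 had 1 read over the Fib-Ctrl libraries and 102 over those of Fib-dZeb1, too few to be tested. Among the other defining markers Cdx2 had no read in any library, Cdh1 had a mean of 0.0192 TPM in Fib-Ctrl and 0.12 TPM in Fib-dZeb1, and the microvillus gene Vil1 had 0.0476 and 0.0707 TPM. Krt20 had 0.108 and 0.175 TPM. Cldn7 (0.125 and 0.0681 TPM) and Muc2 (0.264 and 0.0411 TPM) went the other way on few reads (3 and 2 for Cldn7, 8 and 5 for Muc2). Within Fib-dZeb1 the markers did not share one order of lines. The sum was higher in line 1 (72.1 and 191 TPM against 25.8 and 42.0 TPM), whereas Epcam and Krt19 (2.55 and 5.80 TPM against 16.3 and 26.6 TPM) were lower there. Ezr had 35.5 and 38.1 TPM in line 1 and 48.0 and 41.0 TPM in line 2, a difference that did not pass (log2 fold change -0.22 with SE 0.19; adjusted p = 0.518 by edgeR). The summed level of 7 mesothelium markers was 2.08 to 6.26 TPM in Fib-Ctrl and 4.65 to 31.3 TPM in Fib-dZeb1. Krt19, which is in both lists, made up most of that sum in Fib-dZeb1 line 2. Of the 3 tested 1, Msln, was higher. Wt1 was the only one of the 7 with a lower mean, with 32 reads over the Fib-Ctrl libraries and 4 over those of Fib-dZeb1. The part of epithelial or mesothelial cells in the level of Ezr, Epb41 and Rab11fip1 was not tested. In bulk RNA a few cells with much Ezr cannot be told apart from many cells with a little.

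Beside the members, 143 genes of the same systems were taken from 9 lists, of which 108 had enough reads. Of these 21 were higher, 8 were lower and 79 did not pass, with a median log2 fold change of 0.03 against -0.005 over all genes. The counts of each list below stand beside 7.54% of all tested genes called higher and 8.65% called lower. The lists were drawn up with earlier results known. Their counts and the adjusted p-values of their genes therefore describe these libraries only and are not independent tests.

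Of 10 tested genes of epithelial apical polarity 6 were higher and none lower, with a median log2 fold change of 0.61. Pard6b, an adaptor of the PAR complex, rose from 0.335 to 0.459 TPM over the Fib-Ctrl libraries to 3.73 to 6.60 TPM over the Fib-dZeb1 libraries (log2 fold change 3.35 with SE 0.28; adjusted p = 0.000581 by edgeR). Patj, a scaffold of the Crumbs complex, rose 6.50-fold (SE of the log2 fold change 0.24, adjusted p = 0.000717 by edgeR), and Prkcz, an atypical protein kinase C, rose 23.7-fold (SE 0.60, adjusted p = 0.00361 by edgeR). The fold of Prkcz starts from few reads, 37 over the Fib-Ctrl libraries (0.059 to 0.743 TPM) against 1072 over those of Fib-dZeb1 (3.33 to 11.9 TPM). No Fib-dZeb1 library of Pard6b, Patj or Prkcz overlapped a Fib-Ctrl library. Crb3, the epithelial Crumbs gene, had no Fib-Ctrl read and a mean of 0.206 TPM in Fib-dZeb1, too few to be tested.

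Of 10 tested genes of epithelial apical trafficking 4 were higher and 1 was lower, with a median of 0.80. Stx3, the syntaxin of the apical membrane, rose from 4.54 to 5.86 TPM to 10.7 to 14.1 TPM (log2 fold change 1.30 with SE 0.14; adjusted p = 0.00166 by edgeR). The secretory Rab gene Rab27b (1.39, SE 0.18, adjusted p = 0.00297 by edgeR) and Sytl5, a synaptotagmin-like Rab27 effector (1.51, SE 0.26, adjusted p = 0.00789), rose as well. Sytl4, another Rab27 effector, fell from 0.684 to 2.02 TPM to at most 0.162 TPM (-4.15, SE 0.70, adjusted p = 0.00783 by edgeR). Mal, Mal2 and Ap1m2, which serve apical and basolateral sorting in epithelia, had no read in any library except 1 read of Mal2. Of the other untested genes Rab17 had 0 reads over the Fib-Ctrl libraries and 17 over those of Fib-dZeb1. Sytl1 had 24 and 37, and Anxa13 had 2 and 0.

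In the Rab11 recycling list 17 of 20 tested genes did not pass, and the median was -0.08. Rab11fip4 was the riser: it had 3 reads over the Fib-Ctrl libraries and 292 over the Fib-dZeb1 libraries. Relative to the scaled library totals the ratio was 80.6 (95% exact interval 27.3 to 393, for counting error only). The adjusted p was 0.00366 by edgeR. All 3 of these Fib-Ctrl reads were in line 1 replicate 2, and the fitted log2 fold change of 6.15 became 9.1 without that library and 5.74 to 6.25 without any other. Rab11fip4 held 1.37% to 4.21% of the summed TPM of the 5 Rab11fip genes in Fib-dZeb1, and Rab11fip1 went from 0.661% to 1.27% up to 8.18% to 11%. Rab11fip5 and Rab11fip3 stayed the main forms. The exocyst genes Exoc4 (-0.82, SE 0.20, adjusted p = 0.0298 by edgeR) and Exoc3 (-0.43, SE 0.10, adjusted p = 0.0254 by edgeR), whose complex tethers vesicles at the plasma membrane, fell. Each lost the call when any of 5 of the 8 libraries was left out (adjusted p up to 0.078 and 0.0654 by edgeR) and with library size only (0.0502 and 0.099).

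Of 7 tested ERM partners and scaffolds 2 were higher and 1 lower (median -0.09). Slc9a3r2, the close relative of Slc9a3r1, rose from 12.3 to 21.4 TPM to 36.0 to 57.5 TPM, with no overlap (log2 fold change 1.26 with SE 0.22; adjusted p = 0.00842 by edgeR). Podxl, an ezrin-binding sialomucin, rose from 13 to 327 reads over 4 libraries (4.34, SE 0.95, adjusted p = 0.0191 by edgeR), with 3.29 TPM in Fib-dZeb1 line 1 replicate 2 and 0.322 to 0.640 TPM in the other Fib-dZeb1 libraries, and lost the call without Fib-Ctrl line 2 replicate 1 (0.0541). The proteoglycan gene Sdc2 fell (-0.62, SE 0.12, adjusted p = 0.0126 by edgeR). Of 11 tested kinases and regulators of the ERM proteins only Arhgap18 was called (1.32, SE 0.36, adjusted p = 0.0404 by edgeR), and not with the replicate number as a block (0.0585) or without any of 6 of the 8 libraries (up to 0.104). Its Fib-dZeb1 line 1 (6.40 and 5.79 TPM) lay near Fib-Ctrl line 1 (5.81 and 4.13 TPM).

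Of 14 genes of the microvillus core and tip 4 were tested and 2 were higher. Eps8, an actin capping and bundling protein of microvillus tips, rose from 23.4 to 46.0 TPM to 97.2 to 123 TPM (1.53, SE 0.22, adjusted p = 0.00485 by edgeR). Its relative Eps8l2 rose from 7.42 to 9.03 TPM to 19.1 to 38.1 TPM (1.85, SE 0.22, adjusted p = 0.00231 by edgeR). The brush border genes Cdhr2, Ush1c and Anks4b had no read in any library. The other untested genes had few reads. Pls1 had 1 read over the Fib-Ctrl libraries and 62 over those of Fib-dZeb1, and Vil1 had 1 and 6. Espn had 24 and 15, Eps8l1 had 11 and 4, Myo1a had 13 and 11, and Cdhr5 and Myo7b had 1 and 0 each.

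Of 16 other tested FERM genes 3 were higher and 2 lower (median -0.12). The FERM phosphatase genes Ptpn3 (0.97, SE 0.14, adjusted p = 0.00548 by edgeR) and Ptpn4 (0.66, SE 0.11, adjusted p = 0.00699 by edgeR) rose, and Epb41l5 was called at 1.0 (SE 0.28, adjusted p = 0.043 by edgeR). Epb41l5 was not called with the replicate block (0.0605) or with no filter (0.058), and its call held without Fib-Ctrl line 1 replicate 1 but not without any other library (up to 0.108). Epb41l3, the fourth protein 4.1 gene, fell from 65.6 to 69.4 TPM to 46.6 to 51.6 TPM (-0.61, SE 0.08, adjusted p = 0.00417 by edgeR), opposite to Epb41. Of 15 spectrin skeleton genes 1, Ank2, was lower (-1.18, SE 0.33, adjusted p = 0.043 by edgeR). Ank2 was not called with the replicate block (0.0642), with library size only (0.0584) or without any library but Fib-Ctrl line 1 replicate 2 (up to 0.104). Of 15 Hippo genes around Nf2 2 were higher and 1 lower (median 0.05). Wwc1, which encodes the merlin partner KIBRA, rose from 5.44 to 13.0 TPM to 29.0 to 37.4 TPM (1.95, SE 0.26, adjusted p = 0.00359 by edgeR), and Stk4, a core Hippo kinase gene, rose by 0.57 (SE 0.09, adjusted p = 0.00702 by edgeR). Sav1, its adaptor, fell by 0.37 on the log2 scale (SE 0.10, adjusted p = 0.0422 by edgeR). Sav1 was not called with the replicate block (0.0553), library size only (0.193), no filter (0.0804) or without any library but Fib-dZeb1 line 1 replicate 2 (up to 0.119).

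**Figure D5:**
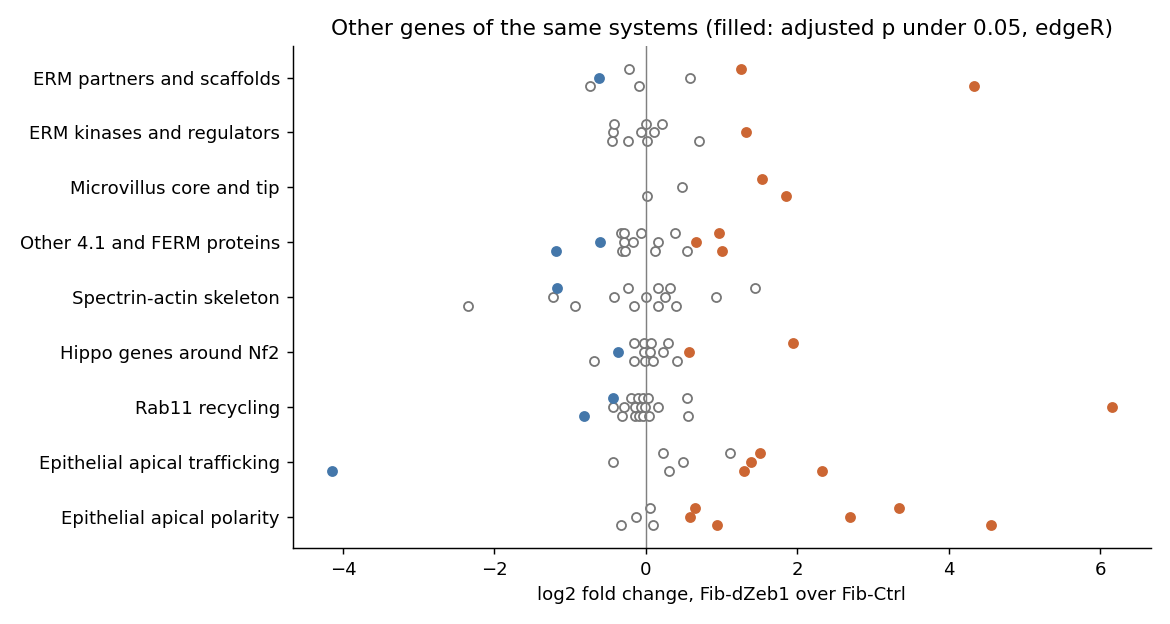
Log2 fold change of Fib-dZeb1 over Fib-Ctrl (x axis) of the 108 tested genes in the 9 lists (rows); filled points passed an adjusted p of 0.05 by edgeR, orange for higher and blue for lower, and open points did not. Apical polarity has 6 filled points, all above 0, and Rab11fip4 is the point farthest to the right.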

How the data were processed

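The members, the companion lists and the tests were chosen with earlier results of these data known. Polyadenylated RNA of 8 cultures was sequenced. The authors ran an nf-core pipeline (STAR alignment, GRCm38; Salmon quantification) and used DESeq2. For STAR and Salmon no version, and for the counting no strand setting, is given in the sources used here. The deposited estimated counts per transcript carry no normalization, and the deposited TPM are scaled to a fixed total per library. Both were summed to genes with GENCODE M21, which matched 108214 of 109617 transcripts (unmatched reads 0.262% to 0.303%), and counts were rounded. Overlapping genes without strand information are uncertain.

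Counts were tested in R 4.3.3 with edgeR 4.0.16 (quasi-likelihood test, expression filter, TMM scaling, Benjamini-Hochberg adjustment over 12963 genes, threshold 0.05). A first fit had genotype as its only term, a second a mean for each of 4 lines, and another added the replicate number. Fold changes are Fib-dZeb1 over Fib-Ctrl. CPM were scaled by TMM. A floor of 3 reads and exact intervals cover counting error only. Alternatives used DESeq2 1.42.0, limma 3.58.1 (voom), other scaling, no filter, a replicate block, lines summed and each library left out. Voom and lines summed were looked at for the members only, so the companion p-values count replicates of a line as independent. Scripts were tested on simulated data. All members are named. From each companion list up to 3 rising and 3 falling genes past the threshold without overlap are named, smallest adjusted p first, and the 3 genes with the highest correlation with Ezr, Epb41 and Rab11fip1. Other genes named with values (Dynlt1f, Crb3, Xist, the untested apical trafficking and microvillus genes, the fibroblast, colon epithelium and mesothelium markers) were chosen after their values were seen.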

Additional observations from a re-analysis of the deposited data

Results flagged for a closer look

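The genotype contrast of Slc9a3r1 differed between the line numbers by -2.64 on the log2 scale (SE 0.19, adjusted p = 0.000782 by edgeR), with -0.38 in line 1 and 2.26 in line 2. Fib-Ctrl line 2 held 288 and 285 reads, and the other 6 libraries 1067 to 2158 reads. Line 1 of both genotypes was not from the same animal, and for line 2 this is not known. Same-numbered lines were therefore not taken as pairs, and the value describes 4 lines of which 1, Fib-Ctrl line 2, was low. No member had a single library far from the other 3 of its genotype in the 18 sets of 4 libraries examined.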

How the results depend on the processing

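The number of members past the threshold in the genotype fit, 4, describes the selection and supports nothing. It was 1 (Ezr) with the lines summed, 3 with voom and with no filter (without Rdx), 5 with library size only (Nf2 added) and 3 to 4 with 1 library left out, where Rdx passed without Fib-Ctrl line 2 replicate 2 and not without any other library. Epb41l1, not called, turned from -0.09 to 0.09 with library size only and also to 0.09 without Fib-dZeb1 line 1 replicate 1 (range -0.24 to 0.09 with 1 library left out). Between the Fib-Ctrl lines DESeq2 called 3 members and the fit without a filter 2, against 1. The difference between line numbers was called for 2 members by DESeq2, for 2 with library size only and for 4 without a filter, against 1. The mean Ezr share in Fib-dZeb1 was 4.26% from counts against 5.34% from TPM. Causes of these shifts were not tested. Same-numbered libraries of both genotypes had correlations of their deviations of 0.23, -0.054, -0.053 and 0.079, and for 3 of 8 libraries the best match bore its own number, so the numbers were not taken as pairs; with the replicate number as a block 4 members were called, as without it. Rab25 is limited by depth, with 4 reads in all.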
